A study of Mus musculus with 8 samples.

Results

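The comparison described here set cultured mouse molar tooth germs treated with SIS3 against tooth germs treated with SB431542, both taken at E12.5, for every protein-coding gene of the deposited count table. Its members are 4 of the series' 8 samples, the SIS3 and the SB431542 samples at E12.5, and 21718 protein-coding genes of the 35896 genes in the table. RNA-seq was made from molar tooth germs of BRE-GFP embryos (a reporter of BMP-Smad signalling) that were kept for 1 day in serum-containing medium with an inhibitor or its solvent. The other samples were E12.5 germs and E13.5 germs in DMSO, the solvent, and each of the 4 groups had 2 samples. All groups carried the BRE-GFP reporter. A tooth germ is a whole piece of tissue, so a library can hold odontogenic mesenchyme, dental epithelium, vessels, blood cells and nearby bone and muscle cells together. The labels do not give the strain, the number of germs per library and the dose of either inhibitor.

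TGF-beta and activin ligands bind pairs of type I and type II receptors, and the type I receptors ALK4, ALK5 and ALK7 phosphorylate Smad2 and Smad3, which enter the nucleus with Smad4 and bind DNA. SB431542 blocks the kinase of these type I receptors, upstream of both Smads, whereas SIS3 is described as an inhibitor of Smad3 phosphorylation. BMP ligands use other type I receptors and Smad1, Smad5 and Smad9, and in the early molar Bmp4, Msx1 and Pax9 are part of the mesenchymal programme that drives the tooth germ from bud to cap.

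The SIS3 libraries were made with the TruSeq kit and all other libraries with the SMARTer low-input kit, so the inhibitor and the kit cannot be told apart in any value below. The E12.5 DMSO library has the kit of the SB431542 library and is given beside the values for that reason. Within each SMARTer group the totals of the 2 deposited columns were apart by 0.00749% or less, against 44.5% between the SIS3 columns. Per gene, the squared difference between the 2 columns over its counting variance has a median of 0.455 under counting noise alone. For genes with 1 transcript that median was 0.444 to 0.497 in the SMARTer groups and 3.95 with SIS3. Over all genes it was higher, at 0.73 to 0.934 and 5.21. The mean of the same ratio was 0.921 to 1.12 in the SMARTer groups for genes with 1 transcript, but 2.66 to 3.46 over all genes. With SIS3 these means were 16.6 and 23.6. The cause of the excess over all genes was not tested. On the totals and the genes with 1 transcript, the SMARTer columns were summed and counted as 1 library per group. The comparison therefore rested on 2 SIS3 libraries, with 5995709 and 9427262 counts, against 1 SB431542 library with 28161788 counts. No label says whether the SIS3 samples were separate cultures, and p-values then measure only the spread between these libraries, possibly a technical one. Levels are given as CPM, counts scaled to library size, after edgeR's TMM normalisation, in the order SIS3 library 1, SIS3 library 2, SB431542 and E12.5 DMSO, and 3 counts correspond to 0.495, 0.305, 0.105 and 0.0992 CPM in these libraries. A gene was called when its p-value from edgeR's quasi-likelihood test was at or under 0.05 after Benjamini-Hochberg adjustment over the 19022 genes tested.

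The labelled tissue was checked against genes that mark the dental mesenchyme. Msx1 stood at 360, 269, 317 and 483 CPM, Pax9 at 369, 199, 359 and 372 CPM, and Lhx8 at 251, 204, 276 and 211 CPM. All of these transcription factors of the molar mesenchyme were present in every library, and SIS3 library 2 was the lowest for each.

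Of 16611 protein-coding genes tested, 81 were higher with SIS3 (0.488%) and 316 were lower (1.9%), 397 in all (2.39%). These shares are the background for every count of called list members below. Before adjustment, 820 genes had a p at or under 0.05 in the higher and 1605 in the lower direction. The median log2 fold change, SIS3 minus SB431542, was -0.03 over all genes tested. Among called genes the median log2 fold change was 2.10 in the higher group, where 43 genes differed more than 4-fold, and -2.31 in the lower group, where 195 did. The median 95% interval of a single gene reached 1.09 to either side on the log2 scale, and the smallest called change was 1.22 upward and 1.14 in size downward. Smaller differences were mostly not detectable with these libraries. Both SIS3 libraries lay on the same side of SB431542 for all 81 genes called higher and all 316 called lower. This position is therefore not particular to any called gene named below.

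**Figure D1:**
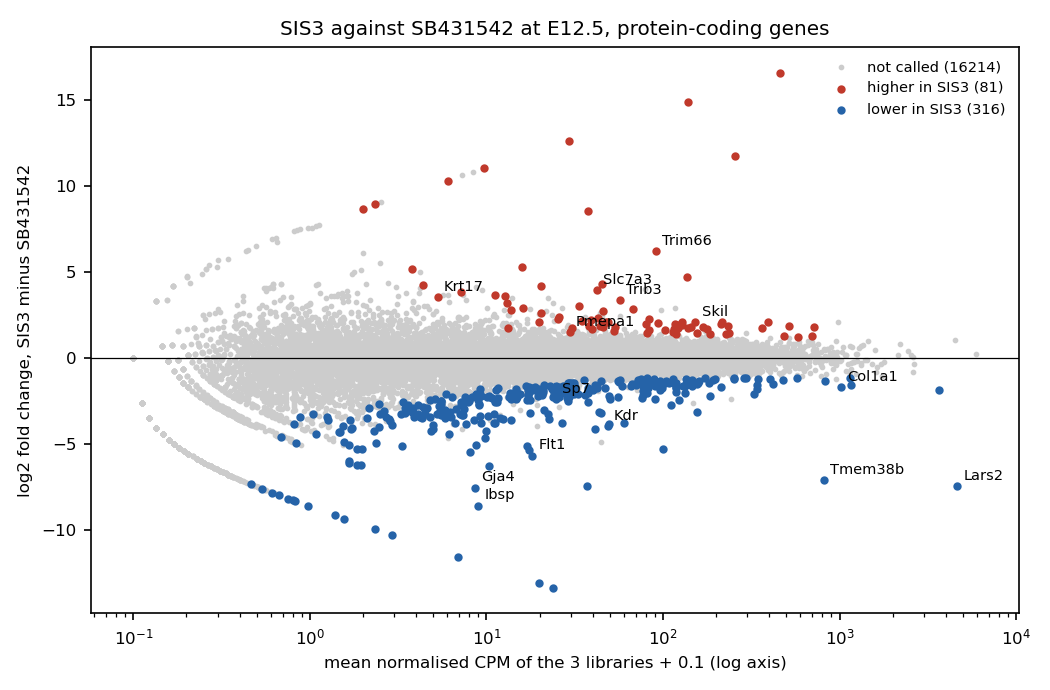
Log2 fold change of SIS3 over SB431542 (vertical axis) against the mean normalised CPM of the 3 libraries plus 0.1 (horizontal log axis) for 16611 protein-coding genes. The 316 genes called lower (blue) outnumber the 81 called higher (red), and Lars2 and Tmem38b stand apart at high levels.

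The E12.5 DMSO level lay nearer to the SIS3 mean than to SB431542 for 18 of the 397 called genes (4.53%), against 4378 of all 16611 genes tested (26.4%). Distance was measured on log2(CPM + 0.5). For the other 379 called genes the DMSO library, which shares its kit with the SB431542 library, was nearer to SB431542. The 8 genes called higher whose DMSO level was near SIS3 were Pmepa1, Skil, Aspn, Rasl11b, Krt17, Dsg2, Esrp2 and Apol7e. Of these, only Skil, Aspn and Pmepa1 are on the list of Smad2/3 feedback and target genes, as 3 of its 28 tested members. Both SIS3 libraries exceeded SB431542 in each of the 8, so a DMSO level near SIS3 makes SB431542 their lowest library. The count of 18, over both directions, rested on the settings of the fit: it was 7 without the E13.5 DMSO library and 2 with the SIS3 and SB431542 libraries alone.

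Skil (chr3:31095058-31122577, plus strand, GRCm38) encodes SnoN, a repressor that binds Smad complexes and is itself induced by TGF-beta. Its level was 253, 156, 47.6 and 175 CPM. Both SIS3 libraries exceeded SB431542, and DMSO lay between the 2 SIS3 libraries. The log2 fold change was 2.10 (SE 0.34, adjusted p = 0.0115 by edgeR's quasi-likelihood test), 4.29-fold.

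Pmepa1 (chr2:173224458-173276533, minus strand) encodes a membrane protein that holds back receptor-activated Smads and is among the most widely shared TGF-beta targets. It stood at 41.6, 33.9, 13.2 and 50.3 CPM, so SB431542 alone was low and DMSO was above both SIS3 libraries. The log2 fold change was 1.51 (SE 0.34, adjusted p = 0.0479 by edgeR). That call was close to the threshold and was lost without the E13.5 DMSO library and without either SB431542 column, and over 14 other settings its adjusted p ran from 0.000287 to 0.135.

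Aspn encodes asporin, a small leucine-rich proteoglycan that binds TGF-beta. It stood at 16.0, 18.4, 5.08 and 36.4 CPM, with both SIS3 libraries between SB431542 and DMSO (log2 fold change 1.76, SE 0.40, adjusted p = 0.0470). Rasl11b, a Ras-like small GTPase, stood at 36.8, 32.2, 7.12 and 36.6 CPM, with SB431542 below the other 3 libraries (log2 fold change 2.28, SE 0.39, adjusted p = 0.0123). The Aspn call was lost in 5 of 14 other settings, among them the fit without the E13.5 DMSO library. Over those 14 the Aspn adjusted p by edgeR or DESeq2 ran from 0.000376 to 0.176. The Rasl11b and Skil calls were lost with the SIS3 and SB431542 libraries alone and when only genes with a mean of at least 5 CPM were fitted. Over all 14 other settings the edgeR or DESeq2 adjusted p ran from 0.00013 to 0.0741 for Rasl11b and from 4.44e-07 to 0.093 for Skil.

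A pair of epithelial genes was also picked by the position of DMSO, which makes SB431542 their lowest library. Krt17, a keratin of oral epithelium, stood at 5.11, 9.87, 0.631 and 16.6 CPM (log2 fold change 3.57, SE 0.65, adjusted p = 0.0183). Dsg2, a desmosomal cadherin, stood at 19.5, 36.7, 4.49 and 12.7 CPM (log2 fold change 2.65, SE 0.49, adjusted p = 0.0238). DMSO was above both SIS3 libraries for Krt17 and below both for Dsg2. Both genes were higher in SIS3 library 2 than in library 1. So was the summed level of the dental epithelium list, untested members included, at 288, 824, 296 and 546 CPM. Both calls were lost with the SIS3 and SB431542 libraries alone, and the Dsg2 call also without the E13.5 DMSO library. The part of epithelial content in these values was not tested.

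In the lower direction the same position of DMSO was seen for Cplane1, Scd1 and Sned1 among the genes that met the naming conditions. Cplane1, which acts in ciliogenesis and planar polarity, stood at 79.7, 87.9, 383 and 162 CPM (log2 fold change -2.19, SE 0.29, adjusted p = 0.000742). Scd1, the desaturase that makes monounsaturated fatty acids, stood at 53.8, 78.2, 221 and 108 CPM (log2 fold change -1.74, SE 0.32, adjusted p = 0.00888). Sned1, an extracellular matrix protein, stood at 83.5, 108, 275 and 149 CPM (log2 fold change -1.52, SE 0.30, adjusted p = 0.0130). Genes picked for this position of DMSO have SB431542 as the highest of the 4 libraries by that choice.

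**Figure D2:**
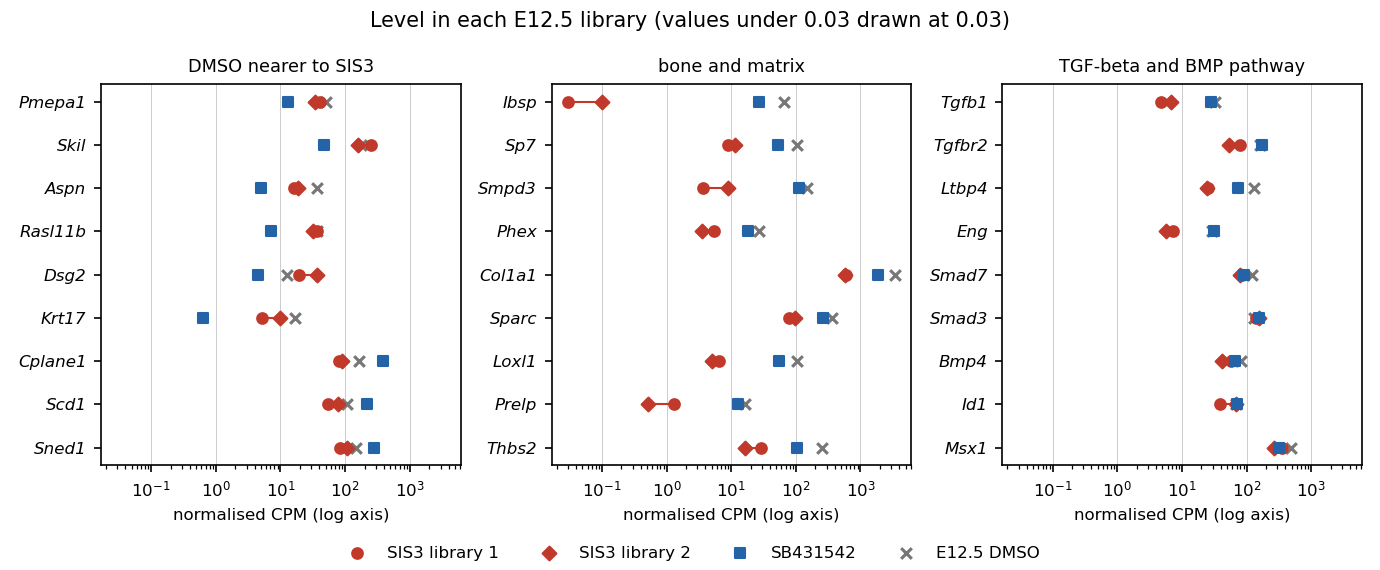
Normalised CPM (log axis) of named genes in the 2 SIS3 libraries (red, joined by a line), the SB431542 library (blue) and the E12.5 DMSO library (grey cross). The left panel holds genes picked because DMSO lay nearer to SIS3, so SB431542 stands apart by that choice. The middle panel holds genes called lower, and both SIS3 libraries lie left of SB431542 and DMSO. In the right panel Smad7, Smad3, Bmp4, Id1 and Msx1 lie close together.

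Over the whole list of Smad2/3 feedback and target genes, 28 of 29 were tested, 3 were called higher (Skil, Aspn and Pmepa1) and none lower, with a median log2 fold change of -0.03, the same as over all genes. The count of 3 was 1 without the E13.5 DMSO library and 0 with genes under a mean of 5 CPM removed. Smad7, the inhibitory Smad, stood at 84.8, 80.4, 91.5 and 123 CPM, with a log2 fold change of -0.15 and a 95% interval from -0.79 to 0.50. Bambi, a decoy receptor, had -0.02 (interval -0.80 to 0.76) and Ccn2, a matricellular growth factor, 0.15 (-0.97 to 1.27). The Smad7 and Bambi intervals leave out a 2-fold difference in either direction, while that of Ccn2 does not. Cdkn1a, a cell cycle inhibitor on both this list and the p53 list, had 1.58 (0.63 to 2.52, adjusted p = 0.117).

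Of 24 TGF-beta and activin ligands, receptors, binding proteins and Smads, 4 were called lower and none higher, with a median of -0.16. Tgfb1, a ligand, stood at 4.78, 6.82, 28.2 and 32.7 CPM, so both SIS3 libraries were below the SMARTer libraries (log2 fold change -2.26, SE 0.40, adjusted p = 0.00675). Ltbp4, a binding protein that anchors latent TGF-beta in matrix, stood at 25.6, 24.7, 73.3 and 130 CPM (-1.54, SE 0.31, adjusted p = 0.0130). Tgfbr2, the type II receptor, stood at 78.0, 52.9, 175 and 164 CPM (-1.42, SE 0.32, adjusted p = 0.0288), and this call was lost without the E13.5 DMSO library. Eng, the endoglin co-receptor of endothelium, stood at 7.42, 5.60, 31.1 and 28.8 CPM (-2.27, SE 0.44, adjusted p = 0.0118). DMSO was nearer to SB431542 in all of them, and none of the 4 calls held with genes under a mean of 5 CPM removed. Endothelial markers, described below, were lower in the same libraries, and Eng is itself one of them; their part in the lower Tgfb1, Ltbp4 and Tgfbr2 values was not tested.

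The remaining receptors and Smads were not called. Tgfbr1 (ALK5) had a log2 fold change of 0.06 (interval -0.57 to 0.69), Smad2 0.41 (-0.23 to 1.06), Smad3 -0.05 (-0.69 to 0.59) and Smad4 -0.19 (-0.83 to 0.45). The Smad3 messenger RNA stood at 140, 158, 155 and 132 CPM, and the 2 SIS3 libraries lay on either side of SB431542. RNA levels do not measure the phosphorylation that the inhibitors act on.

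None of 29 BMP ligands, receptors and targets was called in either direction (median -0.23). By edgeR's unadjusted p, 1 of them was at or under 0.05 in the higher and 3 in the lower direction, and DESeq2 called 0. Over all 14 other settings of the fit 0 to 3 were called higher and 0 to 7 lower, the upper ends arising where the SMARTer columns were counted as separate replicates. Bmp4 stood at 57.1, 41.9, 66.9 and 82.7 CPM (-0.44, interval -1.14 to 0.27), Id1, a direct BMP-Smad target, at 39.4, 69.0, 71.5 and 67.5 CPM (-0.39, -1.21 to 0.42) and Id3 had -0.37 (-1.03 to 0.29). Msx1 had -0.01 (-0.65 to 0.62). These intervals bound the differences but do not show that the inhibitors act alike on BMP output.

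Bone matrix and osteoblast genes were among those lower with SIS3. Of 22 osteogenic genes tested, 6 were called lower (Ibsp, Sp7, Col1a1, Smpd3, Sparc and Phex) and none higher, and the median was -1.30, or -1.14 with Bglap and Bglap2, both at 0 counts with SIS3, set to the bound that 3 counts over the group allow. The count ran from 4 to 14 over the 14 other settings and was 5 without the E13.5 DMSO library. In bulk tissue, fewer bone-forming cells and less RNA per cell cannot be told apart, here or in any cell type below.

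Ibsp (chr5:104299171-104311469, plus strand) encodes bone sialoprotein, a matrix protein of mineralising bone. It stood at 0, 0.102, 26.5 and 66.3 CPM, so SIS3 had 1 count in all and SB431542 had 755. The SB431542 level was 421 times the SIS3 level, with a counting interval from 75.3 to 16634 that covers counting error only (adjusted p = 1.18e-06 by edgeR).

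Sp7, osterix, the transcription factor required for osteoblasts, stood at 9.07, 11.3, 53.6 and 104 CPM (log2 fold change -2.39, SE 0.34, adjusted p = 0.00135). Smpd3, a sphingomyelinase needed for bone mineralisation, stood at 3.63, 8.95, 111 and 151 CPM (-4.09, SE 0.46, adjusted p = 0.00532). Phex, an endopeptidase of bone cells, stood at 5.44, 3.56, 18.4 and 26.6 CPM (-2.05, SE 0.51, adjusted p = 0.0435). Each was below both SMARTer libraries in both SIS3 libraries, and SB431542 was in turn below DMSO. Runx2, the earlier osteoblast regulator that is also a tooth mesenchyme gene, was not called at 228, 160, 302 and 356 CPM (-0.64, interval -1.30 to 0.02), nor was Alpl, alkaline phosphatase (-0.69, -1.84 to 0.46).

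Of 18 genes on the collagen list, 5 were called lower (Col1a1, Col16a1, Col4a1, Col5a3 and Col12a1) and none higher. All 18 had negative values, with a median of -0.97. Col1a1, the main chain of bone collagen, stood at 604, 582, 1872 and 3413 CPM (-1.66, SE 0.26, adjusted p = 0.00283), and its call was kept in all 14 other settings. Col4a1, of vessel and epithelial basement membranes, stood at 198, 219, 471 and 596 CPM (-1.17, SE 0.28, adjusted p = 0.0350). Col1a2, which pairs with Col1a1 in the same fibre, was not called (-0.31, -0.88 to 0.25). The list's count was 2 without the E13.5 DMSO library and 1 with genes under a mean of 5 CPM removed.

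Among 34 elastic fibre, crosslinking and proteoglycan genes, 5 were called lower and 1 higher, the higher one being Aspn, with a median of -0.48, and 1 lower call was left with genes under a mean of 5 CPM removed. Loxl1, a crosslinking enzyme of elastic fibres, stood at 6.60, 4.99, 54.8 and 103 CPM (-3.26, SE 0.34, adjusted p = 7.04e-05) and kept its call in every setting tried. Prelp, a proteoglycan of basement membranes, stood at 1.32, 0.509, 12.7 and 16.5 CPM (-3.88, SE 0.64, adjusted p = 0.00421). Thbs2, a matricellular thrombospondin, stood at 29.4, 16.2, 103 and 253 CPM (-2.19, SE 0.37, adjusted p = 0.00858). Sparc, a collagen-binding protein that is also on the osteogenic list, stood at 77.9, 95.6, 265 and 364 CPM (-1.61, SE 0.29, adjusted p = 0.00786). For Loxl1, Prelp, Thbs2 and Sparc the order was SIS3 lowest, SB431542 next and DMSO highest. Fn1, fibronectin, went the other way without being called (0.72, 0.15 to 1.29, adjusted p = 0.235).

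Genes of the ATF4 stress response, which cells use when amino acids run short or proteins misfold, were among those higher with SIS3. Of 33 ATF4 and unfolded-protein stress genes, 10 were called higher and none lower, 32 had positive values and the median was 1.27. The called genes were Trib3, Sesn2, Aldh1l2, Asns, Cebpg, Gpt2, Stc2, Ddit3, Chac1 and Mthfd2. The count was 8 without the E13.5 DMSO library and ran from 1, with genes under a mean of 5 CPM removed, to 24.

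Trib3, a pseudokinase that feeds back on ATF4, stood at 80.5, 83.0, 7.78 and 4.0 CPM, with both SIS3 libraries far above the SMARTer libraries (log2 fold change 3.39, SE 0.36, adjusted p = 0.000662). Sesn2, a leucine sensor and also a p53 target, stood at 129, 121, 30.4 and 16.9 CPM (2.04, SE 0.31, adjusted p = 0.00648). Asns, asparagine synthetase, stood at 250, 194, 63.0 and 52.7 CPM (1.82, SE 0.31, adjusted p = 0.0105). In each of these DMSO lay below SB431542.

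Aldh1l2, a mitochondrial folate enzyme, stood at 154, 186, 43.7 and 36.7 CPM (1.96, SE 0.31, adjusted p = 0.00707). Chac1, which degrades glutathione, stood at 61.7, 59.1, 17.0 and 9.55 CPM (1.83, adjusted p = 0.0301), and Ddit3, the CHOP factor, at 72.9, 47.1, 15.2 and 11.1 CPM (1.98, adjusted p = 0.0292). The SIS3 libraries did not overlap with the SMARTer libraries for any of them, which against SB431542 was so for every called gene. Atf4 itself stood at 315, 330, 147 and 145 CPM but was not called (1.13, 0.51 to 1.75, adjusted p = 0.0740).

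Several list members known from protein misfolding in the endoplasmic reticulum were not called, although Ddit3, which also takes part in that response, was. Hspa5, the BiP chaperone, had 0.16 (-0.46 to 0.78), Xbp1, a transcription factor of the unfolded-protein response, 0.14 (-0.57 to 0.86), Dnajb9 0.10 (-0.76 to 0.97) and Pdia4, a disulphide isomerase, 0.04 (-0.62 to 0.69). These were picked by role after their values were known, and their difference from the called members was not tested.

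Some genes of amino acid transport and transfer RNA charging were also called higher. Of 19 amino acid transporter genes, 5 were called higher (Slc7a3, Slc3a2, Slc1a4, Slc7a1 and Slc7a5) and none lower, with a median of 0.37, and 1 call was left with genes under a mean of 5 CPM removed. Slc7a3 (chrX:101079210-101086020, minus strand), a cationic amino acid transporter, stood at 57.1, 65.0, 3.93 and 3.83 CPM (log2 fold change 3.96, SE 0.40, adjusted p = 0.000547), 15.5-fold, and kept its call in all 14 other settings. Slc3a2, the heavy chain shared by several transporters, stood at 338, 228, 71.2 and 64.7 CPM (1.99, SE 0.32, adjusted p = 0.00905). Slc7a5, a light chain that pairs with it to carry leucine, stood at 248, 216, 86.9 and 81.6 CPM (1.42, adjusted p = 0.0312). SB431542 and DMSO lay close together for all of these.

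Of 20 transfer RNA synthetase genes, 3 were called higher (Eprs, Lars and Aars), none lower, with a median of 0.61. Eprs, the glutamyl-prolyl synthetase, stood at 916, 820, 353 and 395 CPM (1.30, SE 0.28, adjusted p = 0.0328), and Aars, the alanyl synthetase, at 684, 528, 248 and 210 CPM (1.29, SE 0.29, adjusted p = 0.0459). None of the 3 calls held without the E13.5 DMSO library, so the count was then 0.

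The promoters of called members were read for the C/EBP-ATF response element core, which ATF4 dimers are known to bind. The letters TGATGNAA were searched on both strands of RefSeq windows (GRCm38.p6) from 250 bases before to 50 after each gene's start. They occurred in 3.97% of all 32851 windows and in 419 of 12931 tested protein-coding genes with a window (3.24%). Of 29 ATF4 list members with a window, 9 held a match, and of the 9 called members with a window 3 did (Trib3, Asns and Chac1). Of 14 transporter genes with a window 3 held a match, and of the 3 called ones Slc1a4 did. Of 13 transfer RNA synthetase genes with a window 5 held a match. Of the 2 called ones Aars did, and its 2 matches are not shown. The sites of Trib3, Asns, Chac1 and Slc1a4 are shown in 30 bases, because they are among the letters behind these counts. The match is in capitals and each site is written along its gene's strand.
Trib3 chr2:152344028-152344057, minus strand: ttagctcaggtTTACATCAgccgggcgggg
Asns chr6:7693214-7693243, minus strand: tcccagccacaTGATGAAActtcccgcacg
Chac1 chr2:119351038-119351067, plus strand: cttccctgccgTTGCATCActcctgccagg
Slc1a4 chr11:20332699-20332728, minus strand: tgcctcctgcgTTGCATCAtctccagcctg
Of the sites shown, only the Asns one has the element in the forward orientation, and those of Chac1 and Slc1a4 share the 8 letters TTGCATCA. The longer stretch before Chac1 (chr2:119350992-119351228) shows the surroundings of its match, which ends well before the first annotated transcript base.
Chac1 upstream, plus strand: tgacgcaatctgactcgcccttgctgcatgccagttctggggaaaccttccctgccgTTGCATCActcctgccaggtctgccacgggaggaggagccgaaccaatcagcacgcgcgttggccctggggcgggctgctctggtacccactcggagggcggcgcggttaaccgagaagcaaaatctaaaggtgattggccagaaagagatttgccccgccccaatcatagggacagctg
The Smad element CAGACA, searched in the same way, occurred in 21% of all windows and in 3 of 14 Smad2/3 list members with a window (Tgif1, Acta2 and Cdkn1a). Aspn, the only called member of that list with a window, held no CAGACA but did hold TGATGNAA. A match is a string of letters and not evidence of binding.

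Targets of p53, a factor that responds to DNA damage and other stresses, were also among the genes called higher. Of 28 tested, 5 were called higher (Sesn2, Ccng1, Trp53inp1, Btg2 and Zmat3) and none lower, 25 had positive values and the median was 1.08. Ccng1, cyclin G1, stood at 177, 140, 46.2 and 42.5 CPM (1.78, SE 0.31, adjusted p = 0.0120). Trp53inp1, a stress-induced autophagy factor, stood at 380, 236, 83.0 and 45.4 CPM (1.89, SE 0.34, adjusted p = 0.0175). Btg2, an antiproliferative gene that is also an immediate-early gene, stood at 125, 139, 42.3 and 42.6 CPM (1.64, SE 0.31, adjusted p = 0.0176). The SIS3 and SMARTer levels did not overlap in these genes, which against SB431542 was so for every called gene. Eda2r had 2.76 (interval 1.51 to 4.02) with an adjusted p of 0.0501, and Mdm2, the p53 ubiquitin ligase, 0.84 (0.03 to 1.65, adjusted p = 0.347), so both missed the threshold. With genes under a mean of 5 CPM removed, no member of this list was called.

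**Figure D3:**
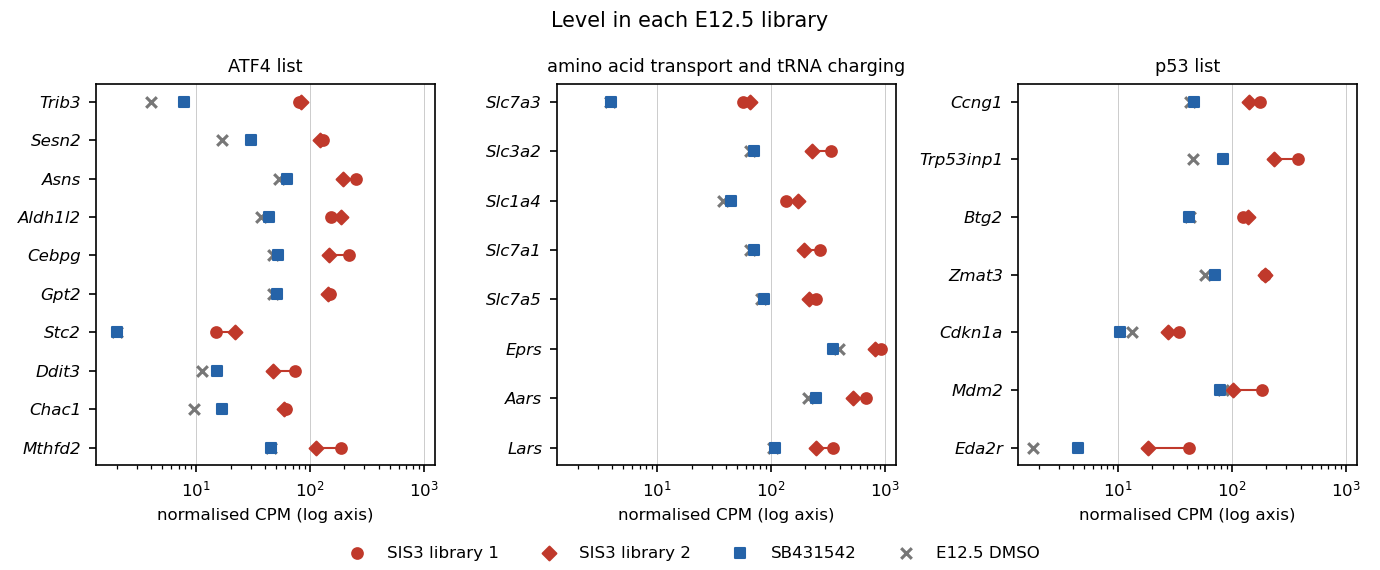
Normalised CPM (log axis) of genes on the ATF4, amino acid transport, transfer RNA charging and p53 lists, drawn as in the plot of Smad and matrix genes. Both SIS3 libraries (red) lie right of SB431542 (blue) and DMSO (grey) for every gene shown, by the smallest margin for Mdm2. Apart from Cdkn1a, Mdm2 and Eda2r, the genes shown were picked because they were called higher. Both SIS3 libraries exceeded SB431542 in all 81 genes called higher.

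Of 34 odontogenic mesenchyme genes, 1 was called lower and none higher, with a median of -0.28. That count is near the share over all protein-coding genes tested (1.9% lower, 0.488% higher), so it says nothing about the list. By edgeR's unadjusted p, 4 were at or under 0.05 in the lower direction and 0 in the higher. The called gene was Fgf3, a growth factor of the dental mesenchyme, which had 0 counts in both SIS3 libraries, 75 in SB431542 (2.63 CPM) and 4.63 CPM in DMSO, at least 13.9-fold lower with SIS3 by a floor of 3 counts over the group (adjusted p = 0.0102). Barx1, a molar-specifying homeobox gene, stood at 166, 138, 311 and 295 CPM and missed the threshold (-1.03, -1.66 to -0.41, adjusted p = 0.0824). Pax9 had -0.34 (-1.18 to 0.50). Tcf7, a transcription factor of Wnt signalling, was the only one of 19 Wnt target genes called, at 3.30, 5.29, 25.4 and 38.6 CPM (-2.54, SE 0.44, adjusted p = 0.00556).

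The next groups separated the SIS3 libraries from each other. Dental epithelium genes had a median difference from SB431542 of -0.02 in library 1 and 1.78 in library 2. EdgeR called none of 30, with 5 higher and 2 lower at an unadjusted p of 0.05, and DESeq2 called 3 higher. Krt14, a basal keratin, stood at 14.8, 60.1, 4.91 and 34.1 CPM. Chondrogenic genes had -0.40 and 1.01, with Col2a1, cartilage collagen, at 70.8, 513, 149 and 208 CPM. EdgeR and DESeq2 called none of 16, and 1 was higher at an unadjusted p of 0.05. Mitosis genes had 0.78 and -0.83, with Mki67, the proliferation antigen, at 466, 132, 262 and 436 CPM. EdgeR and DESeq2 called none of 25, and none had an unadjusted p of 0.05 or less. SB431542 lay between the SIS3 libraries for Col2a1 and Mki67, so no direction can be read for these genes. S-phase genes, of which edgeR and DESeq2 called none of 26 and 7 were lower at an unadjusted p of 0.05, had a median of -0.30 and differed by 0.09 between the SIS3 libraries at the median.

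Markers of several cell types outside the dental mesenchyme were lower with SIS3. Of 22 endothelial markers tested, 17 were called lower and none higher, with a median of -3.05. The summed level of the list, untested members included, was 101 and 90.1 CPM with SIS3 against 685 with SB431542 and 635 in DMSO. The count ran from 10 to 19 over the other settings. Kdr, a VEGF receptor, stood at 8.74, 7.94, 129 and 109 CPM (-3.95, SE 0.32, adjusted p = 6.81e-06). Flt1, another VEGF receptor, stood at 1.16, 0.916, 51.9 and 41.5 CPM (-5.66, SE 0.48, adjusted p = 7.39e-06). Cdh5, the cadherin of endothelial junctions, stood at 9.73, 8.95, 130 and 128 CPM (-3.80, SE 0.32, adjusted p = 9.31e-06). SB431542 and DMSO lay together and both SIS3 libraries were far below. Vwf and Erg, also endothelial, were not called (0.33, -0.66 to 1.31, and -0.12, -2.11 to 1.88).

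Other genes of vessels were among the 10 largest called decreases at a mean of at least 5 CPM. Gja4, a gap junction protein of arterial endothelium, had 2 counts in the SIS3 libraries against 717 in SB431542, a ratio of 200 with a counting interval from 55.1 to 1652 (adjusted p = 0.000628). Gja5, a related gap junction gene, stood at 0.495, 0.916, 24.4 and 25.9 CPM (-5.04, SE 0.61, adjusted p = 0.000233), and Sox7, an endothelial transcription factor, at 1.32, 1.42, 47.7 and 24.9 CPM (-5.10, SE 0.47, adjusted p = 2e-05). Rin3, a guanine nucleotide exchange factor of endosomes, was also among these decreases but is on no list of vessel markers. It stood at 1.65, 1.22, 26.7 and 14.6 CPM (-4.24, adjusted p = 0.000547 by edgeR). For all of these SIS3 was lowest in both libraries.

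Of 22 macrophage and leukocyte markers 8 were called lower and none higher, with a median of -3.06 (-3.00 with Cd52, at 0 counts with SIS3, at its bound). Their summed level was 24.9, 20.2, 102 and 111 CPM. Mrc1, the mannose receptor, stood at 2.14, 0.814, 19.8 and 11.2 CPM (-3.80, SE 0.64, adjusted p = 0.00556), and C1qc, a complement chain of macrophages, had 1 count with SIS3 against 153 with SB431542 (ratio 85.2, counting interval 15.1 to 3388, adjusted p = 0.00665). The count was 4 without the E13.5 DMSO library and 0 with genes under a mean of 5 CPM removed.

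Skeletal muscle genes had 5 of 22 tested called lower, none higher, and a median of -1.33. The summed levels of that list, untested members included, were 393, 339, 1039 and 1019 CPM. Ttn, titin, stood at 215, 159, 648 and 612 CPM (-1.79, SE 0.29, adjusted p = 0.00454), and Des, the muscle intermediate filament desmin, at 6.93, 5.49, 31.4 and 24.5 CPM (-2.34, SE 0.45, adjusted p = 0.0111). The muscle count was 3 without the E13.5 DMSO library and 0 with genes under a mean of 5 CPM removed. Of 8 pericyte markers 2 were called lower (Abcc9 and Anpep). The Anpep call was lost in 8 of 14 other settings, among them DESeq2 and the fit without the E13.5 DMSO library, and no pericyte marker was called with genes under a mean of 5 CPM removed. Of 18 neuronal and Schwann markers edgeR and DESeq2 called none (median -0.40, with 3 lower at an unadjusted p of 0.05). The endothelial, macrophage and muscle sums were alike in the SB431542 and DMSO libraries, which share a kit, and lower in both SIS3 libraries. Their part in the bone, collagen and TGF-beta results was not tested.

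**Figure D4:**
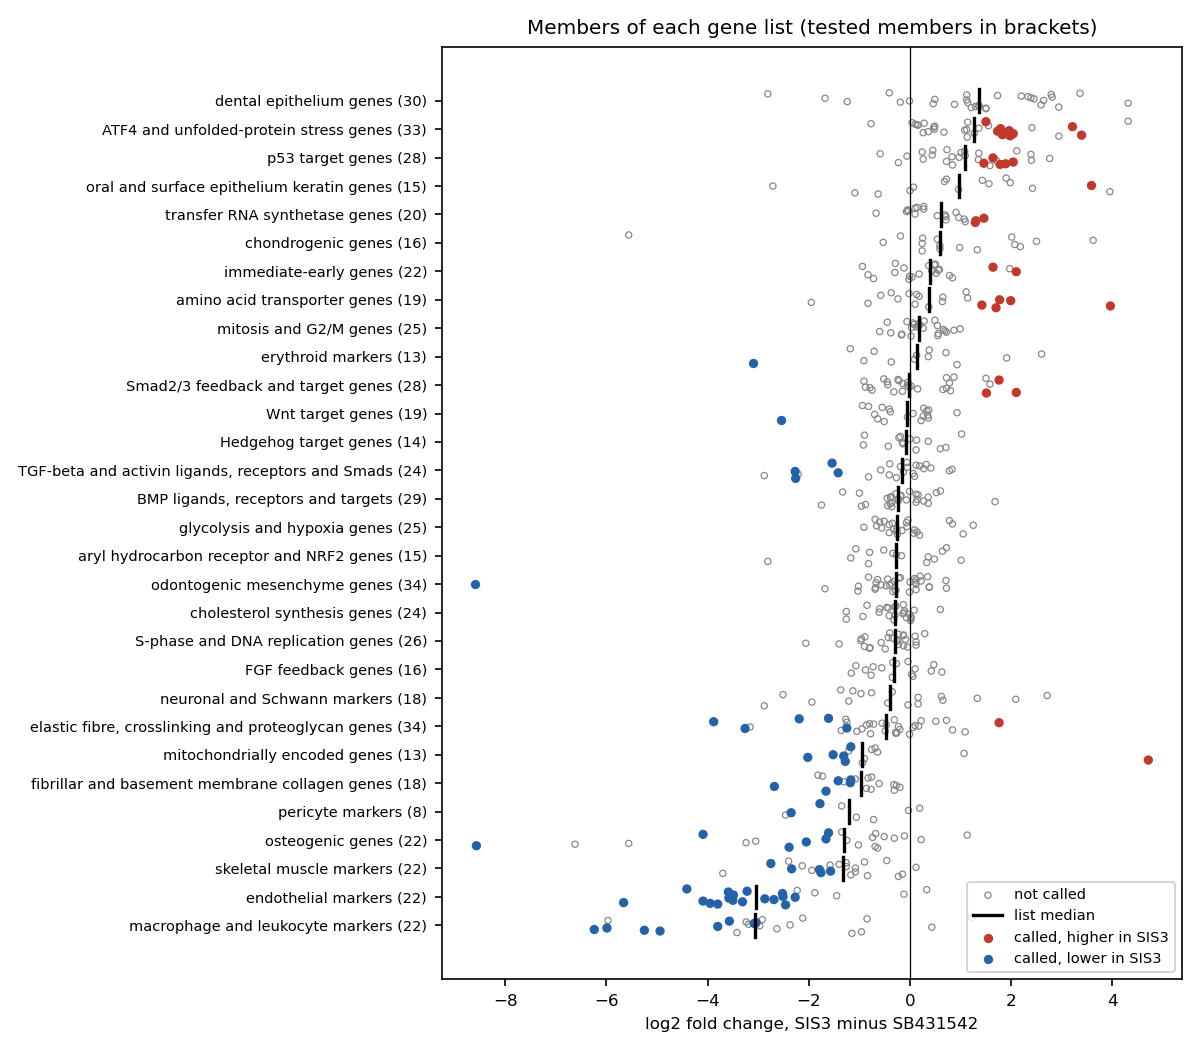
Log2 fold change of SIS3 over SB431542 (horizontal axis) for each tested member of 30 gene lists, with called members in red (higher) or blue (lower) and the list median as a black bar. Endothelial and macrophage markers have the lowest medians, at -3.05 and -3.06, and dental epithelium and ATF4 genes the highest, at 1.36 and 1.27.

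The largest changes included genes with no shared role. Lars2, the mitochondrial leucyl-tRNA synthetase, stood at 68.8, 90.7, 13799 and 13015 CPM (-7.43, SE 0.26, adjusted p = 1.59e-08), and Tmem38b, a cation channel of the endoplasmic reticulum, at 18.0, 17.4, 2411 and 2598 CPM (-7.09, SE 0.27, adjusted p = 1.67e-08). Both were far lower in each SIS3 library and both were alike in the SB431542 and E12.5 DMSO libraries. In the E13.5 DMSO library, also made with the SMARTer kit, Lars2 stood higher, at 35676 CPM, and Tmem38b at 2316 CPM. Lars, the cytosolic counterpart of Lars2, went the other way (350, 249, 109 and 105 CPM, 1.46, adjusted p = 0.0350).

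Of the largest called increases at a mean of at least 5 CPM, Trim66, a chromatin-binding nuclear protein, stood at 136, 136, 1.79 and 3.47 CPM (6.25, SE 0.35, adjusted p = 3.15e-06) and kept its call in all 14 other settings. Scg2, a granin of secretory vesicles, stood at 96.0, 35.7, 3.26 and 5.95 CPM (4.33, SE 0.62, adjusted p = 0.0430), and Avil, the actin-binding protein advillin, at 17.2, 41.9, 1.61 and 2.02 CPM (4.19, SE 0.62, adjusted p = 0.0117). Hrk, a pro-apoptotic BH3-only protein, stood at 10.6, 9.97, 0.701 and 0.165 CPM (3.86, SE 0.77, adjusted p = 0.0381). Stc2, a secreted glycoprotein on the ATF4 list, stood at 15.0, 22.1, 2.00 and 2.02 CPM (3.21, SE 0.60, adjusted p = 0.0272). Each exceeded both SMARTer libraries in both SIS3 libraries. The Scg2 call was lost without the E13.5 DMSO library, and the Scg2, Hrk and Stc2 calls were lost without SB431542 replicate 1 and with GC and length trends removed. Ano3, a scramblase-family membrane protein, and Col20a1, a minor collagen, complete the 10 largest increases, at 3.62 (SE 0.63, adjusted p = 0.0189) and 3.71 (SE 0.68, adjusted p = 0.0384 by edgeR). Ano3 stood at 24.7, 11.7, 1.47 and 1.29 CPM and Col20a1 at 8.25, 23.7, 1.23 and 1.36 CPM. In the E13.5 DMSO library Ano3 stood at 9.19 CPM, and Col20a1 at 23.3 CPM, between the SIS3 libraries. The Col20a1 call was lost in 6 of 14 other settings, among them the fit without the E13.5 DMSO library, and the Ano3 call in 3.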

How the data were processed

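The deposited table holds estimated counts per gene, made by the authors and already whole numbers; per the submitters' processing notes Salmon, HISAT2, SAMtools, deepTools and DESeq2 were used on mm10, with versions not given in the sources used here. Biotypes and coordinates came from GENCODE M21 (GRCm38) and promoter letters from RefSeq (GRCm38.p6). Groups came from the labels. Column pairs of a group whose difference was near counting noise (totals, and genes with 1 transcript) were summed to 1 library, which left 5 libraries, 1 residual degree of freedom and a prior of 12.5. Genes passed edgeR's filterByExpr, and the contrast SIS3 minus SB431542 was tested with edgeR 4.0.16 (TMM, robust quasi-likelihood F test) in R 4.3.3 with Benjamini-Hochberg adjustment at 0.05 over all genes tested. All groups shared 1 estimate of the spread, so the lone SB431542 library is assumed to vary like the SIS3 libraries. On counts simulated for 18000 genes, 200 were changed, all among genes with a mean of at least 5 CPM. The test recovered 93.9% of the 8-fold changes, 55.2% of those of 4-fold and 8.96% of those of 2-fold, and made 10 false calls. Recovery below that level was not tested.

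Named genes were Pmepa1, Skil, Slc7a3 and Ibsp, the 10 largest called changes in each direction with a mean of at least 5 CPM and under 50% of 31-mers shared with other genes, up to 4 called members of each list, called genes whose DMSO level was nearer to SIS3 (up to 6 in each direction), and list members with a stated role. The members, lists and tests were chosen with earlier results of these data known. Alternatives were DESeq2 1.42.0, other scalings and filters, the columns as replicates with and without a block, fewer libraries, GC and length trends removed, near-identical genes removed and each column left out. Other pseudocounts and the fit without the E13.5 DMSO library were chosen after seeing the data. No genome sequence was used. Some items are not reported here.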

Additional observations from a re-analysis of the deposited data

How the results depend on the processing

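Against 81 genes higher and 316 lower, the calls were 129 higher with DESeq2, 219 and 669 with no low-count filter, 11 and 56 with genes of a mean of 5 CPM or more, 32 and 101 with the SIS3 and SB431542 libraries alone, 187 lower without the E13.5 DMSO library, 47 and 133 with GC and length trends removed, and 147 and 486 without near-identical genes. With the 8 columns as replicates they were 2458 and 2915 without a block and 2189 and 2646 with the replicate block. The 2 columns of a SMARTer group differed by about counting noise in genes with 1 transcript. Over all genes their squared difference was on average 2.66 to 3.46 times the counting variance. On the genes with 1 transcript and the totals they were not taken as separate samples whose numbers could pair. The fits with 8 columns take their difference for replicate spread. Leaving out an SB431542 column gave 68 to 79 higher and 281 to 290 lower. Leaving out a SIS3 library left no residual degrees of freedom and no test. It moved the log2 fold change of 10 (library 1) and 13 (library 2) of 75 named genes by more than the SD between the SIS3 libraries. Among them were Gja4, Ibsp, C1qc and Adgre1, which had 1 or 2 counts over both SIS3 libraries. Dropping 1 of 2 libraries mostly moves a value by less than their SD, so staying within it says little about stability. The 18 called genes with DMSO nearer to SIS3 became 52 (no filter), 1 (5 CPM), 572 and 460 (8 columns without and with the block), 2 (2 groups alone), 7 (no E13.5 library) and 5 (GC and length), and 14 to 18 without an SB431542 column. No named gene changed direction in any setting. That was nearly fixed in advance, because both SIS3 libraries lay on the same side of SB431542 for every called gene. Of 75 named calls, 22 were kept in every setting that tested them. Apart from the columns counted as replicates, the cause of these shifts was not tested. The depth of the SIS3 libraries limits genes under a few CPM, and 1 SB431542 library and a kit that goes with SIS3 limit every value.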

Other observations

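Some values differed in a way that gene models with near-identical copies leave uncertain. Rps27, a ribosomal protein gene, stood at 4.62, 9.97, 285 and 341 CPM in SIS3 library 1, SIS3 library 2, SB431542 and E12.5 DMSO, and its near-identical copy Rps27rt at 357, 406, 0.105 and 0 CPM. Their sum was 362, 416, 285 and 341 CPM. The alpha globin genes Hba-a1 and Hba-a2 summed to 464, 196, 527 and 559 CPM, although Hba-a2 alone was called lower (log2 fold change -3.10, SE 0.41, adjusted p = 0.00734 by edgeR's quasi-likelihood test).

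Of 13 protein-coding genes of the mitochondrial genome, 5 were called lower with SIS3 and 1 higher, with a median log2 fold change of -0.94. Without the E13.5 DMSO library 2 were called lower and none higher, and with genes under a mean of 5 CPM removed 1 was called lower. The called gene mt-Nd3, a subunit of complex I, stood at 119, 284, 7.71 and 10.5 CPM, while mt-Nd5, another subunit of complex I, stood at 463, 651, 1384 and 1341 CPM and lost its call in 4 of 14 other settings, the fit without the E13.5 DMSO library among them. Of 65 replication-dependent histone genes 9 were called lower and 2 higher (median -0.71). The lower count was 5 without the E13.5 DMSO library and 2 with genes under a mean of 5 CPM removed. It was 36 where the SMARTer columns were counted as replicates. With near-identical genes removed, none was called higher.

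Among the immediate-early genes, a quickly induced class of transcription factors and regulators, 2 of 22 were called higher, 1 without the E13.5 DMSO library and none with genes under a mean of 5 CPM removed. Nr4a1, an orphan nuclear receptor, stood at 204, 376, 67.8 and 66.0 CPM (log2 fold change 2.10, SE 0.38, adjusted p = 0.0312), a call lost in both of those fits and with the SIS3 and SB431542 libraries alone, while Fos stood at 289, 331, 315 and 275 CPM (-0.02, 95% interval -0.64 to 0.59) and Egr1 at 492, 686, 522 and 585 CPM (0.18, -0.46 to 0.81). Cyp1a1, the enzyme that marks aryl hydrocarbon receptor activity, stood at 0.165, 1.02, 4.52 and 1.42 CPM and was not called (adjusted p = 0.194).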
